A study of Homo sapiens with 4 samples.

Results

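The accessible chromatin around 10 genes of steroid production was examined, 6 encoding steroid-converting enzymes (CYP11A1, CYP17A1, CYP21A2, CYP19A1, HSD3B2 and SULT2A1) and 4 encoding proteins that pass electrons to such enzymes or aid that transfer (FDX1, FDXR, POR and CYB5A). All FAIRE sites that touched the gene body or the 100 kb beyond either of its ends were taken, which gave 78 of the 34422 nuclear sites listed at basal SF-1 dosage and 79 of the 31218 listed after SF-1 overexpression. FAIRE-seq crosslinks chromatin with formaldehyde and sequences the DNA that stays free of nucleosomes. Both conditions used H295R/TR SF-1 cells, a derivative of the H295R adrenocortical tumour line in which doxycycline induces extra SF-1 (NR5A1). Basal cells had the basal dosage of SF-1, and overexpressing cells had been given doxycycline for 3 days before fixation. Each condition was 1 FAIRE library, the 2 libraries of input DNA are not analysed here, and an effect of doxycycline itself cannot be told apart from that of SF-1. The lists hold positions and no expression values or read counts, so the level of SF-1, the identity of the cells and the sequencing depth were not checked. Absence from a list means that no site was called, not that the chromatin was closed.

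Steroid production starts in mitochondria, where CYP11A1 cleaves the side chain of cholesterol with electrons that FDXR takes from NADPH and hands on through FDX1. CYP17A1, CYP21A2 and CYP19A1 work in the endoplasmic reticulum with electrons from POR, and CYB5A raises the lyase activity of CYP17A1 that leads to androgens. HSD3B2 and SULT2A1 need no such electron supply. SF-1 is a nuclear receptor of the adrenal cortex and gonads that binds the letters CAAGGTCA or CAAGGCCA, called the SF-1 motif here, as a monomer.

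Sequences are given for the sites at a gene start that differed most between the lists, from GRCh37, the assembly behind hg19. A start is the 5′ end of the gene model in GENCODE release 44, and each sequence is the part of the site upstream of it, read in the direction of the gene. Capitals mark the SF-1 motif, which lies on the opposite strand at CYP11A1 and so appears there as its reverse complement.
CYP11A1 upstream part, chr15:74659988-74660149, minus strand: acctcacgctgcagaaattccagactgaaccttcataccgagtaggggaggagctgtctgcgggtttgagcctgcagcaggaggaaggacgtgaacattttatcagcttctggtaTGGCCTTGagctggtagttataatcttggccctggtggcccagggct
CYP17A1 upstream part, chr10:104597230-104597499, minus strand: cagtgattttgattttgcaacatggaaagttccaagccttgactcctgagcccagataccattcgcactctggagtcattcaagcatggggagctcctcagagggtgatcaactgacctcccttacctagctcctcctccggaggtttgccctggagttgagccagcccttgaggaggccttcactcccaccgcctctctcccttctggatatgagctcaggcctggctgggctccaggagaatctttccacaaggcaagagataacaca
CYP21A2 upstream part, chr6:32005901-32006103, plus strand: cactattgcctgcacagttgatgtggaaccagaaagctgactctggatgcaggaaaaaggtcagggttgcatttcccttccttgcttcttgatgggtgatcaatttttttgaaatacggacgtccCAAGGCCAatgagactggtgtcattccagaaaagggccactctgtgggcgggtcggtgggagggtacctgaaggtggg
FDX1 upstream part, chr11:110300501-110300671, plus strand: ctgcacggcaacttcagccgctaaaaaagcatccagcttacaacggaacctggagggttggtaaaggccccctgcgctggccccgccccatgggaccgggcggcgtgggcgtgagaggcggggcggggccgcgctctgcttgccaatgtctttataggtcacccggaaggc

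The CYP11A1 stretch belonged to a site of the overexpression list alone and also overlaps exons of a long non-coding RNA gene. The FDX1 stretch belonged to a site of the basal list alone and held 14 CpG dinucleotides in 171 bp, against 4 in 162 bp at CYP11A1. The CYP17A1 and CYP21A2 stretches belonged to sites of both lists and are shown at their extent in the overexpression list. The motif began 47 bp before the start of CYP11A1 and 78 bp before that of CYP21A2, and the CYP17A1 and FDX1 stretches held 0 matches. In the 250 bp before the start, only these 2 of the 10 genes held an SF-1 motif, while 2.20% of the 20098 protein-coding genes of chromosomes 1 to 22 and X did. In 1000 bp the same 2 genes held it, against 11.6% of protein-coding genes.

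The SF-1 motif occurred 23 times in the sites of the 10 windows, 12 times as CAAGGTCA and 11 times as CAAGGCCA, and 11 of the 23 lay in the window of CYP11A1. These 11 are shown with 15 bp to either side, on the strand that carries the motif, because no other of the 10 windows held more than 4.
CYP11A1 window, chr15:74544056-74544093, minus strand, overexpression-only: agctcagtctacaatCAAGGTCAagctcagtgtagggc
CYP11A1 window, chr15:74544108-74544145, minus strand, overexpression-only: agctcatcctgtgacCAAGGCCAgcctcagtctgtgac
CYP11A1 window, chr15:74619322-74619359, plus strand, shared: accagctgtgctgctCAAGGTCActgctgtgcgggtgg
CYP11A1 window, chr15:74660012-74660049, plus strand, overexpression-only: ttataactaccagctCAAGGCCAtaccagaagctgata
CYP11A1 window, chr15:74666835-74666872, plus strand, shared: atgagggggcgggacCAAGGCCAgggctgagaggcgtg
CYP11A1 window, chr15:74704630-74704667, plus strand, overexpression-only: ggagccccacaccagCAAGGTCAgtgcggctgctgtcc
CYP11A1 window, chr15:74704755-74704792, plus strand, overexpression-only: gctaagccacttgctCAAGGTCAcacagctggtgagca
CYP11A1 window, chr15:74706069-74706106, plus strand, overexpression-only: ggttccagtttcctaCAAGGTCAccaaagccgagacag
CYP11A1 window, chr15:74712687-74712724, plus strand, shared: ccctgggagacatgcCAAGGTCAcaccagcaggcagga
CYP11A1 window, chr15:74734525-74734562, plus strand, overexpression-only: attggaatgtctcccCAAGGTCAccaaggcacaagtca
CYP11A1 window, chr15:74734555-74734592, plus strand, overexpression-only: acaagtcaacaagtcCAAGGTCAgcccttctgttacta

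For comparison, 6 further matches from the other windows are shown in the same way.
CYP21A2 window, chr6:32006011-32006048, plus strand, shared: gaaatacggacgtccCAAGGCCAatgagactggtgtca
FDX1 window, chr11:110316415-110316452, minus strand, basal-only: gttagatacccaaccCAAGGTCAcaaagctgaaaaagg
FDXR window, chr17:72871835-72871872, plus strand, basal-only: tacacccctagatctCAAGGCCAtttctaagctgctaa
FDXR window, chr17:72804297-72804334, plus strand, overexpression-only: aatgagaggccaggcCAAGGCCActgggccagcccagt
HSD3B2 window, chr1:119928416-119928453, minus strand, basal-only: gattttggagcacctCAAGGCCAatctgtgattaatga
CYP19A1 window, chr15:51522313-51522350, plus strand, shared: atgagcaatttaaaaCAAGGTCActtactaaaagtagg

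Of the 11 matches near CYP11A1, 8 were CAAGGTCA, and in each of 2 overexpression-only sites upstream of the gene a pair of CAAGGTCA lay in the same direction. All 4 matches near FDXR were CAAGGCCA. The windows of SULT2A1 and CYB5A held 0 matches in a site.

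The 10 genes together had nearly the same number of sites in both lists, 1.01 overexpression sites per basal site (exact binomial 95% interval 0.731 to 1.40), against 0.907 over the whole lists. Sites of both lists with at least 1 bp in common were called shared, which held for 50 sites of each list. The other 28 basal sites were basal-only (35.9%, exact 95% interval 25.3 to 47.6), where 45.8% of all basal sites were. The other 29 overexpression sites were overexpression-only (36.7%, 26.1 to 48.3), where 40.3% of all overexpression sites were. The condition-only shares of the 10 genes thus lay below those of the whole lists, but both intervals include the whole-list values. All intervals cover counting error only, and with 1 library per condition the differences between conditions lack replicates.

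At least 1 basal-only site lay within 100 kb of 9 of the 10 genes, all but CYP21A2, against 76.5% of protein-coding genes. At least 1 overexpression-only site lay within 100 kb of 8 genes, all but SULT2A1 and CYB5A, against 75.9%. CYP11A1, CYP21A2, FDXR and POR had more overexpression-only than basal-only sites, as 37.6% of protein-coding genes did. CYP17A1, HSD3B2, SULT2A1, FDX1 and CYB5A had fewer, as 39.6% did, and CYP19A1 had 2 of each. The numbers of genes on either side were near those of protein-coding genes in general. The 10 windows were richer in sites than the typical gene, with a median of 3.36 basal and 2.92 overexpression sites per 100 kb against 1.88 and 1.83 over protein-coding genes.

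**Figure D1:**
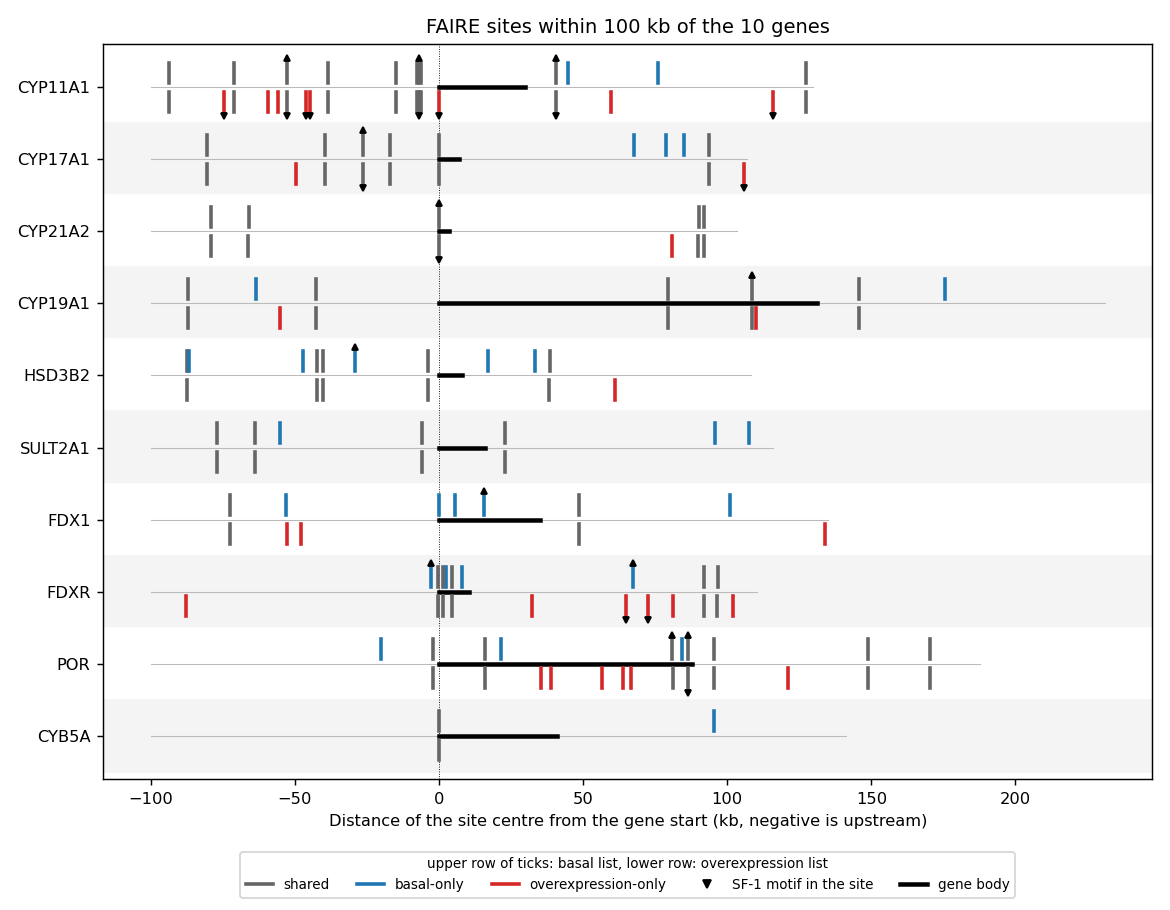
Position of every FAIRE site around the 10 genes, by distance of the site centre from the gene start in kb, with basal sites above and overexpression sites below each gene line. Colours give the class of the site and triangles an SF-1 motif in it. Overexpression-only sites cluster upstream of CYP11A1 and inside POR, and FDX1 has basal-only sites at its start and in its gene body.

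CYP11A1 (ENSG00000140459.18, chromosome 15, 74630100 to 74659987, minus strand) had 12 basal and 18 overexpression sites, of which 10 in each list were shared, 2 were basal-only and 8 overexpression-only. As many overexpression-only sites, 8 or more, were found near 0.751% of protein-coding genes. The site over its start ran from 74659901 to 74660149 (249 bp) and was listed on overexpression only, with the nearest basal site 5951 bp away. A site of the overexpression list alone at the start was found for 8.90% of protein-coding genes. This site had peak number 15533, at 49.8% of the list, and between 40 and 50% of the list 40.6% of sites were overexpression-only.

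The other 7 overexpression-only sites of the CYP11A1 window lay between 44.7 and 74.5 kb upstream or 59.7 and 115.9 kb downstream of the start. The widest ran from 74704451 to 74704849 (399 bp) in an intron of SEMA7A, a gene for a membrane-bound semaphorin, and held 2 SF-1 motifs 125 bp apart. A site from 74705951 to 74706149 (199 bp) also in an intron of SEMA7A, held 1 motif. The sites from 74715601 to 74715849 (249 bp) and from 74719251 to 74719549 (299 bp), again in SEMA7A introns, held none. The site from 74734351 to 74734649 (299 bp), beyond SEMA7A, held 2 motifs 30 bp apart. Beyond the 3′ end of CYP11A1, in introns of CCDC33, the site from 74543901 to 74544199 (299 bp) held 2 motifs and that from 74600201 to 74600349 (149 bp) held none. The distances from these 7 sites to the nearest basal site ranged from 2851 to 14701 bp.

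Thus 5 of the 8 overexpression-only sites near CYP11A1 held an SF-1 motif, and no other of the 20098 protein-coding genes had as many within 100 kb. Of these 5, only the site at the start had CYP11A1 as its nearest protein-coding start. The others lay nearer to the start of SEMA7A or STRA6, so the count describes the window and does not assign the sites to CYP11A1. CYP11A1 was singled out here after these values had been seen. The window had a GC content of 52.6%, and overexpression-only sites were the richer in GC throughout the lists, as given below. Among the 1163 protein-coding genes with windows of 52.5 to 55% GC, 60.4% had more overexpression-only than basal-only sites, 33.8% had an overexpression-only site with the motif and 1.63% had 8 or more overexpression-only sites. Among the 4265 genes with windows under 40% GC these shares were 21.6%, 11.9% and 0.492%. The part of base composition in the CYP11A1 counts was not tested.

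Of the 10 shared sites near CYP11A1, 9 were wider in the overexpression list and 1 was narrower. The 3 nearest lay 6.2 to 7.8 kb upstream of the start. That from 74666651 to 74666899 held an SF-1 motif and was 249 bp wide at basal dosage and 299 bp wide on overexpression. A second shared site with the motif, from 74619101 to 74619399 (299 and 349 bp), lay 10.7 kb beyond the 3′ end in an intron of CCDC33. Another, from 74712551 to 74712749 within SEMA7A, was 199 bp and 349 bp wide. The widest shared site, from 74532351 to 74532799, was 449 bp and 549 bp wide and lay 97.3 kb beyond the 3′ end, also in CCDC33. Both basal-only sites were 149 bp wide, lay in CCDC33 introns (74583901 to 74584049 and 74615051 to 74615199) and held no motif. CYP11A1 itself, apart from its start, held 0 sites in either list.

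**Figure D2:**
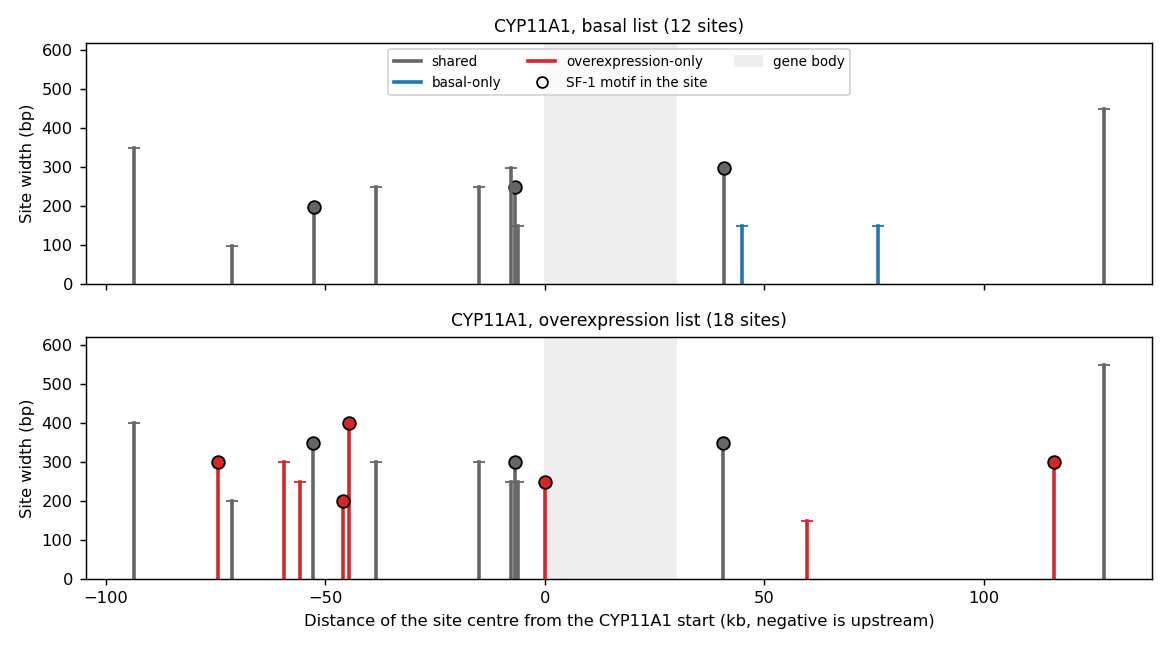
Width of each site in bp by distance from the CYP11A1 start in kb, basal list above and overexpression list below, with the gene body shaded and circles for sites that held an SF-1 motif. The 8 overexpression-only sites include the 249 bp site at the start and 5 that held the motif, while the 2 basal-only sites held none.

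CYP17A1 (ENSG00000148795.7, chromosome 10, 104590288 to 104597229, minus strand), the hydroxylase and lyase on the way to cortisol and androgens, had 9 basal and 8 overexpression sites, 6 of them shared. The shared site at its start was 249 bp wide in the basal list (104597151 to 104597399) and 399 bp in the overexpression list (104597101 to 104597499). It stood at 93.4% of the basal list by peak number and at 27.8% of the overexpression list. The quantity behind the peak numbers is not given in the sources used here, and their relation to site width was not tested. The widest shared site, 449 bp and 549 bp, covered the start of BORCS7 (104613901 to 104614349). The 3 basal-only sites lay 60.7 to 77.9 kb beyond the 3′ end within WBP1L, the widest from 104518401 to 104518849 (449 bp), of which 53.6% of 32-mers were unique in the genome. Of the 2 overexpression-only sites, that from 104491251 to 104491499 (249 bp) overlapped a coding exon of SFXN2, held an SF-1 motif and lay 98.8 kb beyond the 3′ end.

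CYP21A2 (ENSG00000231852.9, chromosome 6, 32006104 to 32009421, plus strand), the hydroxylase needed for both cortisol and aldosterone, had 5 basal and 6 overexpression sites, and all 5 basal sites were shared. At its start the basal site was 99 bp wide (32006001 to 32006099) and among the last of the list, at 99.7%. The overlapping overexpression site was 249 bp wide (32005901 to 32006149), at 49.0%. Both held the SF-1 motif shown above. CYP21A2 lies in a duplicated module, and the share of unique 32-mers was 27.8% in the gene and 54.1% in the wider of these sites, so reads of its copy could have been placed there. The other 4 shared sites lay at the starts of neighbouring genes, NELFE with SKIC2, DXO, ATF6B and FKBPL, the widest being 399 bp in both lists at ATF6B (32095951 to 32096349). The overexpression-only site was 99 bp wide (32086751 to 32086849) in a coding exon of ATF6B.

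CYP19A1 (ENSG00000137869.16, chromosome 15, 51500254 to 51630798, minus strand), aromatase, which makes oestrogens, had 7 sites in each list, 5 shared and 2 condition-only on either side. None lay at its start, the 5′ end of the gene model. Starts of its transcripts other than the canonical one were not examined. Its gene body held 2 basal and 3 overexpression sites, all in introns of the 131 kb gene. The shared site from 51522101 to 51522349 (249 bp) held an SF-1 motif at its last bases in the basal list, which the 199 bp site of the overexpression list did not reach. An overexpression-only site from 51520751 to 51520999 (249 bp) lay 1101 bp from it and held no motif. Among the other sites, the shared site from 51717901 to 51718149, 249 bp and 299 bp wide, lay 87.1 kb upstream, that from 51484901 to 51485149, 249 bp and 149 bp wide, lay beyond the 3′ end, and the wider basal-only site, from 51694101 to 51694349 (249 bp), in an intron of GLDN upstream.

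HSD3B2 (ENSG00000203859.10, chromosome 1, 119957554 to 119965658, plus strand), the dehydrogenase and isomerase that converts precursors into progesterone and its relatives, had 10 basal and 6 overexpression sites, 5 of them shared. The 5 basal-only sites stood against 1 overexpression-only site, and 8.93% of protein-coding genes had as many basal-only sites. None of the sites lay at the start or in the gene. The nearest was shared, 299 bp wide in both lists (119953551 to 119953849), with its centre 3854 bp before the start. One of the 5 basal-only sites, from 119928401 to 119928599 (199 bp) in an intron of HAO2, held an SF-1 motif. Another, from 119870601 to 119870799 (199 bp), lay 86.9 kb upstream and 351 bp from a shared site (119870001 to 119870299, 299 bp and 149 bp wide). The overexpression-only site ran from 120018501 to 120018749 (249 bp), 52.8 kb beyond the 3′ end.

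SULT2A1 (ENSG00000105398.4, chromosome 19, 48373724 to 48389572, minus strand), which sulfates dehydroepiandrosterone, had 7 basal and 4 overexpression sites. All 4 overexpression sites were shared and the remaining 3 basal sites were basal-only. Its start had no site, but 6.0 kb upstream lay the widest basal site of the 10 windows, from 48395301 to 48395799 (499 bp, 0.959% of the list), which was 449 bp wide in the overexpression list (10.7%). The widest basal-only site, from 48444601 to 48444849 (249 bp), had 8.26% unique 32-mers, and the shared site from 48453351 to 48453699 had 3.77%. Across its window 53.9% of 32-mers were unique, the lowest of the 10.

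**Figure D3:**
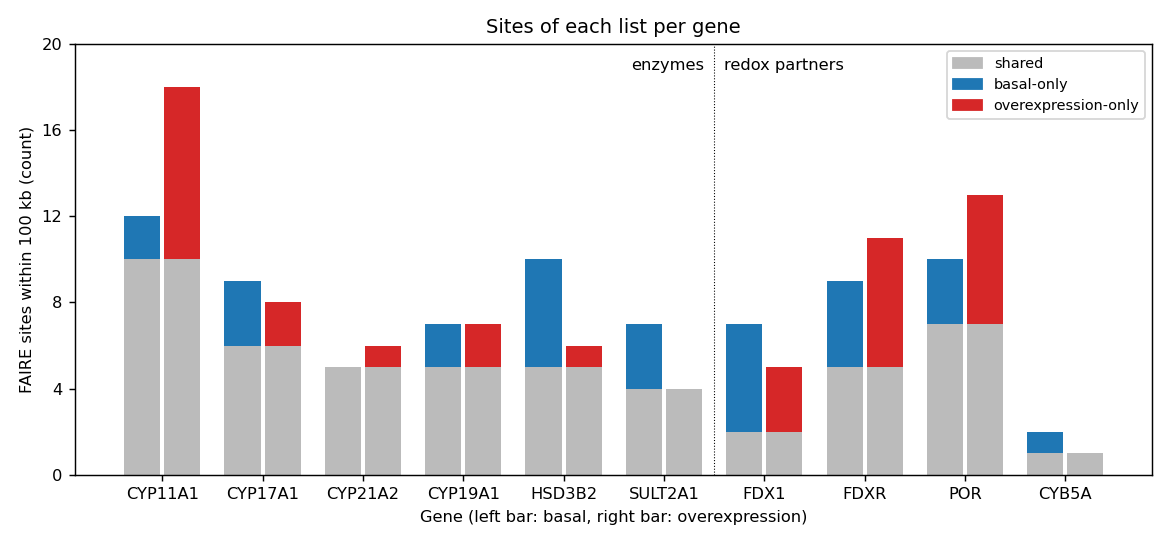
Number of FAIRE sites within 100 kb of each gene, with the basal list as the left and the overexpression list as the right bar, divided into shared and condition-only sites. CYP11A1 rises from 12 to 18 sites and POR from 10 to 13, while HSD3B2 falls from 10 to 6 and SULT2A1 from 7 to 4.

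FDXR and FDX1, which act in turn in the mitochondrial electron chain, had unlike starts. FDXR (ENSG00000161513.12, chromosome 17, 72858619 to 72869156, minus strand) had a site at its start in both lists, 449 bp (72869151 to 72869599) and 499 bp wide, both within the first 1.18% of their lists. FDX1 (ENSG00000137714.3, chromosome 11, 110300672 to 110335608, plus strand) had a 299 bp site at its start in the basal list (110300501 to 110300799) and none in the overexpression list, whose nearest site was 47551 bp away. A basal-only site at the start was found for 6.60% of protein-coding genes. The FDX1 site stood at 13.9% of the basal list, and between 10 and 20% of the list 15.5% of sites were basal-only.

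FDX1 had 7 basal and 5 overexpression sites, of which 2 were shared, so 5 were basal-only and 3 overexpression-only. As many basal-only sites were found near 8.93% of protein-coding genes, the same share as for HSD3B2, and as many overexpression-only sites near 29.3%. A basal-only site in an intron, from 110316251 to 110316499 (249 bp), held an SF-1 motif, and another in an intron, from 110306051 to 110306249 (199 bp), did not. The gene body with its start held 3 basal and 0 overexpression sites. Upstream, a basal-only site from 110247451 to 110247749 (299 bp) and an overexpression-only site from 110247951 to 110248099 (149 bp) lay only 201 bp apart. The widest overexpression-only site, from 110434351 to 110434749 (399 bp), lay 98.7 kb beyond the 3′ end and 1251 bp from a basal site outside the window. The widest shared site, from 110228151 to 110228449 (299 bp and 199 bp), lay 72.2 kb upstream.

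FDXR had 9 basal and 11 overexpression sites, 5 of them shared, with 4 basal-only and 6 overexpression-only. As many basal-only sites were found near 16.6% of protein-coding genes and as many overexpression-only sites near 3.99%. Of the basal-only sites 2 lay in its introns, 1 from 72871651 to 72871999 (349 bp) held an SF-1 motif 2698 bp before the start, and 1 with the motif lay 56.8 kb away in TMEM104. The overexpression-only sites all lay 21.7 to 91.4 kb from the gene. Of these, 1 overlapped NAT9, from 72766951 to 72767199 (249 bp), and 3 lay in introns of TMEM104, 2 of which held the motif. As many overexpression-only sites with the motif were found near 3.54% of protein-coding genes. The shared site in the gene from 72864701 to 72864899 widened from 199 bp to 349 bp.

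POR (ENSG00000127948.17, chromosome 7, 75528518 to 75616173, plus strand), the reductase that supplies the microsomal enzymes, had 10 basal and 13 overexpression sites, 7 of them shared. It had 3 basal-only and 6 overexpression-only sites, and 3.99% of protein-coding genes had as many overexpression-only sites. The window of POR was 288 kb long, and window length was not taken into account in this share. FDXR had the same count and share in a window of 211 kb. By peak number the 6 sites of POR stood at 48.5 to 81.9% of the list. Between 40 and 50% of the list 40.6% of sites were overexpression-only, and between 80 and 90% of it 62.2% were. Of the 6, 5 lay in introns of POR 35.4 to 66.5 kb from the 5′ end, the widest from 75592101 to 75592499 (399 bp), and none held an SF-1 motif. A shared site lay 2.2 kb upstream of the 5′ end of the gene model, 299 bp wide (75526151 to 75526449) at basal dosage and 449 bp wide on overexpression. The 5′ end of the canonical transcript lies further in, at 75544473, within a shared site of 299 bp (75544201 to 75544499). The overlapping overexpression site, 199 bp wide (75544251 to 75544449), ended short of it. The widest basal-only site, from 75549701 to 75549999 (299 bp), lay in an intron.

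CYB5A (ENSG00000166347.19, chromosome 18, 71918081 to 71959208, minus strand) had 2 basal sites and 1 overexpression site, the fewest of the 10. The shared site at its start was 399 bp wide (71959151 to 71959549) at basal dosage and 299 bp wide on overexpression. By peak number it stood at 7.03% of the basal list and at 43.6% of the overexpression list, 2 lists of unequal length. The basal-only site, from 71863751 to 71863899 (149 bp), lay 54.2 kb beyond the 3′ end.

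At the starts, 5 of the 10 genes had a basal site, CYP17A1, CYP21A2, FDX1, FDXR and CYB5A, against 39.5% of protein-coding genes. On overexpression 5 had one, CYP11A1 taking the place of FDX1, against 41.3%. A start site with an SF-1 motif in either list was found for CYP11A1 and CYP21A2, against 1.73% of protein-coding genes. HSD3B2, CYP19A1, SULT2A1 and POR had no site at the 5′ end of the gene model in either list, although POR had a shared site at the start of its canonical transcript. Of the 4 shared start sites, those of CYP17A1 and CYP21A2 were each 150 bp wider on overexpression, that of FDXR was 50 bp wider and that of CYB5A 100 bp narrower.

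Across the windows 50 paired sites, each overlapping only 1 site of the other list, could be compared in width. On overexpression 25 were wider, 18 narrower and 7 equal, and 50% wider (exact 95% interval 35.5 to 64.5) stood against 35.9% of the 18469 such pairs of the whole lists. The interval includes the whole-list share. With 9 of its 10 pairs wider, CYP11A1 contributed 9 of the 25 wider pairs, more than any other of the 10 genes. Enzymes had 17 wider of 35 and redox partners 8 of 15, shares of 48.6% (31.4 to 66.0) and 53.3% (26.6 to 78.7). Widths move in steps of 50 bp, and their relation to signal height is unknown.

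**Figure D4:**
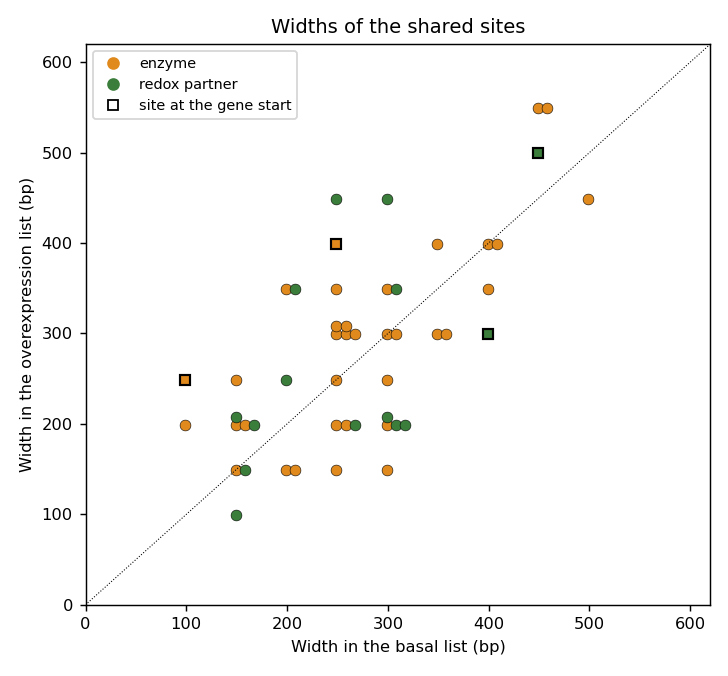
Width in bp of each of the 50 shared sites in the basal list (horizontal) and the overexpression list (vertical), with squares for sites at a gene start, the dotted line marking equal widths and overlapping points shifted slightly. The squares of CYP17A1 (249 bp and 399 bp) and CYP21A2 (99 bp and 249 bp) lie above the line and that of CYB5A (399 bp and 299 bp) below it.

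Distal sites made up most of the window sites of both lists. The zone from 10 to 100 kb also made up most of the length of each window, so this majority does not mean that sites were denser there. The distal share over all protein-coding genes is not given here. Between 10 and 100 kb from the gene body lay 50 of the 78 basal sites (64.1%, exact 95% interval 52.4 to 74.7) and 53 of the 79 overexpression sites (67.1%, 55.6 to 77.3). Gene bodies away from the start held 13 sites of each list, and the 10 kb beside the genes held 10 basal and 8 overexpression sites. Of the distal sites 19 basal (38.0%) and 22 overexpression sites (41.5%) were condition-only, against 45.8% and 40.3% of the whole lists. In gene bodies away from the start 6 of the 13 sites of each list were condition-only. In the 10 kb beside the genes 2 basal and 0 overexpression sites were. Of the distal sites 11 basal and 10 overexpression sites lay within 1 kb of the start of another protein-coding gene. For 10 of the 50 and 8 of the 53 distal sites the nearest protein-coding start was that of the gene of the window.

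Distal sites made up more of the basal list near enzymes than near redox partners, while on overexpression the gap rested on POR. Gene length, which sets how much of a window is distal, was not taken into account. They were 39 of 50 basal sites near enzymes (78%, 64 to 88.5) and 11 of 28 near partners (39.3%, 21.5 to 59.4), a difference of 38.7 percentage points (Newcombe 95% interval 16.1 to 57). On overexpression they were 37 of 49 (75.5%, 61.1 to 86.7) and 16 of 30 (53.3%, 34.3 to 71.7), a difference of 22.2 points (0.847 to 42). Without POR the difference was 33.6 points (8.02 to 55.5) in the basal list and -0.960 points (-20.5 to 24.7) in the overexpression list, where 13 of 17 partner sites were then distal. Without CYP11A1 it was 39.7 points (15.8 to 58.3) and 20.9 points (-3.10 to 41.9). Gene bodies held 2 basal and 3 overexpression sites of the enzymes, against 11 and 10 of the partners, most of them in FDXR and POR. Site density was 3.59 basal and 3.51 overexpression sites per 100 kb near enzymes and 2.87 and 3.08 near partners. Without CYP11A1 the enzymes had 3.26 and 2.66, so that on overexpression their density lay below that of the partners.

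Condition-only sites were less frequent near enzymes in the counts, but the intervals of the differences included 0. Near enzymes 15 of 50 basal sites were basal-only (30%, 17.9 to 44.6) and near partners 13 of 28 (46.4%, 27.5 to 66.1), a difference of -16.4 points (-37.3 to 5.36). On overexpression 14 of 49 (28.6%, 16.6 to 43.3) and 15 of 30 (50%, 31.3 to 68.7) were overexpression-only, a difference of -21.4 points (-41.4 to 0.372). Without CYP11A1 this difference was -30.6 points (-50.3 to -6.77), since 6 of 31 enzyme sites (19.4%) remained overexpression-only. Sites of a window share their surroundings and are not replicates.

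An SF-1 motif was found in 12 of 78 basal sites (15.4%, 8.21 to 25.3) and 14 of 79 overexpression sites (17.7%, 10 to 27.9), where 12.7% and 12.6% of the whole lists held it. Among overexpression-only sites 8 of 29 held it (27.6%, 12.7 to 47.2), against 14.0% of all overexpression-only sites. Among basal-only sites 4 of 28 held it (14.3%, 4.03 to 32.7), against 13.4%. The flanks, of equal length and 1000 bp away, held the motif in 3.21% and 3.16% of cases, against 3.12% and 3.17% for the whole lists. All 5 overexpression flanks with the motif, of 158, belonged to sites near CYP11A1. Without CYP11A1, 0 of 122 overexpression flanks and 4 of 132 basal flanks held it. A control motif with the same letters in another order was found in 0 sites of the 10 windows, and in 0.950% and 1.02% of the whole lists, so that few or no matches would be seen in as few sites either way. The control form GACACGCA holds a CpG dinucleotide and neither form of the SF-1 motif does, so the rates expected for the motifs may differ.

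At least 1 overexpression-only site with the motif lay near CYP11A1, CYP17A1 and FDXR, 3 of the 10 genes, against 21.8% of protein-coding genes. A basal-only site with the motif lay near HSD3B2, FDX1 and FDXR, again 3 of 10, against 20.8%. Near enzymes 6 of 14 overexpression-only sites held the motif (42.9%, 17.7 to 71.1) and near partners 2 of 15 (13.3%, 1.66 to 40.5), a difference of 29.5 points (-3.09 to 55.9). Without CYP11A1, 1 of 6 enzyme sites held it (16.7%, 0.421 to 64.1) and the difference was 3.33 points (-24.8 to 44.2). Without CYP11A1 the share over all overexpression-only sites of the remaining genes was 14.3% (3.05 to 36.3), near the 14.0% of the whole list. Among basal-only sites the motif was found in 1 of 15 near enzymes (6.67%) and 3 of 13 near partners (23.1%), a difference of -16.4 points (-44.1 to 11.1).

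**Figure D5:**
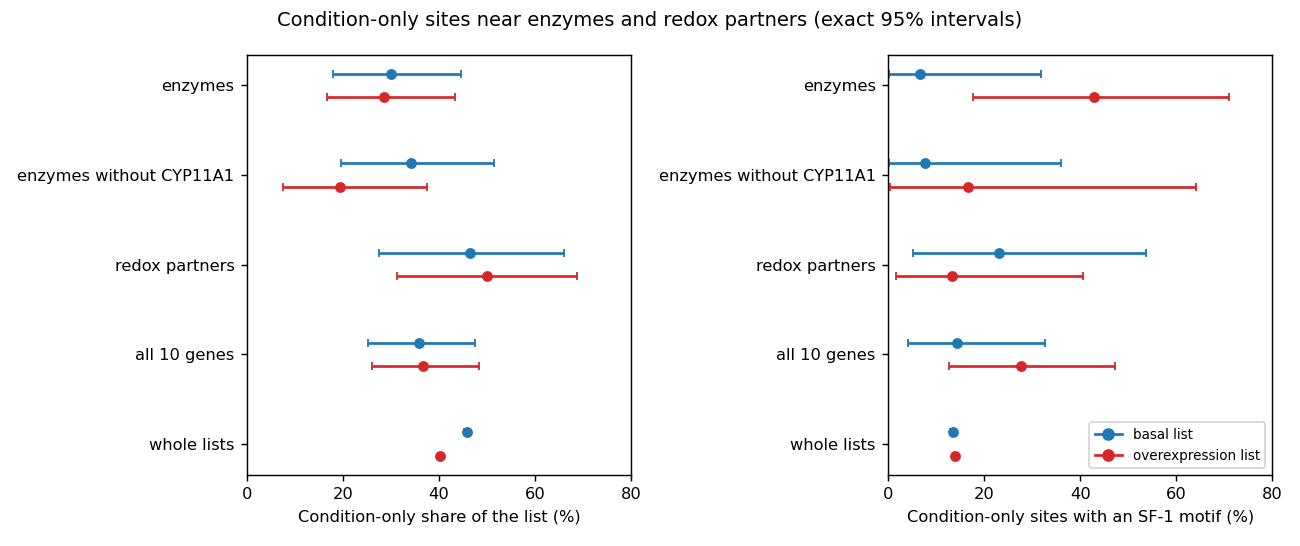
Share of each list that was condition-only (left, %) and share of condition-only sites that held an SF-1 motif (right, %), for the 2 groups of genes, for enzymes without CYP11A1, for all 10 genes and for the whole lists, with exact 95% intervals. The overexpression-only motif share of enzymes is 42.9% with CYP11A1 and 16.7% without it, and the intervals of enzymes and redox partners overlap in both panels.

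Base composition moved with the class of a site. Over the whole lists the number of overexpression-only sites per basal-only site rose from 0.444 among sites under 40% GC to 1.86 among those of 60% GC or more. Near the 10 genes, sites of 60% GC or more were 6 basal-only and 4 overexpression-only. Those of 55 to 60% GC were 5 and 10, and those under 40% were 4 and 3. The overexpression-only sites of the 10 genes had a median GC content of 54.2%, against 46.5% over the whole list, and the basal-only sites 51.6% against 40.5%. The windows of FDXR (55.3%), CYP21A2 (53.3%), CYP11A1 (52.6%) and POR (50.1%) were the richest in GC, and these were the 4 genes with more overexpression-only than basal-only sites. The windows of the other 6 genes had 41.5 to 46.8% GC. The part of base composition in this division was not tested.

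Of 19 other genes of steroid metabolism, 4 had a basal and 4 an overexpression site at the start, against 39.5% and 41.3% of protein-coding genes. SRD5A1, a steroid reductase, had a basal-only and FDX2, a ferredoxin, an overexpression-only site at the start, against 6.60% and 8.90%. Of the 19, 6 had more overexpression-only than basal-only sites within 100 kb, against 37.6%, 7 had fewer, against 39.6%, and 6 had equal numbers. An overexpression-only site with an SF-1 motif lay near 4, against 21.8%, and a basal-only site with one near 2, against 20.8%. No gene of the 19 had more than 1 overexpression-only site with the motif. CYP11B1 and CYP11B2, which have near-identical sequences and overlapping windows, counted as 2 of the 19. HSD3B1 lies in the window of HSD3B2, so some sites can count for both genes.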

How the data were processed

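The series held 4 samples, 1 FAIRE and 1 input DNA library per condition, grouped by the labels, and the 2 FAIRE peak lists were used. The submitters' processing notes name CASAVA 1.8 and hg19. The aligner, peak caller and threshold of the FAIRE lists are not given in the sources used here. The deposited score, 1000 in every line of both lists, carried no information. Peaks were called per library, and no depth is known, so counting intervals do not cover differences in depth.

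Genes were those of GENCODE release 44 on GRCh37, and coordinates are 1-based. Mitochondrial sites were left out. Sites were shared at an overlap of at least 1 bp. Shares have exact Clopper-Pearson 95% intervals, ratios have exact binomial intervals and differences Newcombe's. No test was possible, since each condition had 1 library. Motifs were sought on both strands of the site, and GACACGCA or GACATGCA was the control motif. Uniqueness is the share of 32-mers found once in the genome.

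The members, gene lists, motifs and rules were chosen with earlier results of these data known. Named were all 10 genes, each site within 1 kb of a start, the widest site of each class per window, by basal width for shared sites, and each motif site whose nearest coding start was the member's. The other sites named near CYP11A1, FDX1, FDXR, HSD3B2 and POR were chosen after their values were seen. Scripts used Python 3.11.15, pandas 2.3.3, scipy 1.17.1 and pysam 0.24.0 and were tested on simulated sites. Alternatives covered the window, the overlap rule, list length, width, the motif and leaving out genes, and the start of the canonical transcript and the distal shares without POR or CYP11A1 were added after seeing the data.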

Additional observations from a re-analysis of the deposited data

How the results depend on the processing

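All values rest on 1 library per condition and unknown depth, and the alternatives recompute the same sites. Of 210 values recomputed for 14 results, 191 met the limits set for them, which are wide for few sites. The limits were the counting interval of a share or ratio and 1.5 times a count. A difference had to keep its sign and whether its interval included 0. Some of the 210 could not change, such as the enzyme ratio when a partner was left out. Leaving out SULT2A1 and CYP21A2 was also counted again as a separate setting, so the 191 is no measure of stability. With windows of 10, 50 and 200 kb there were 28, 47 and 132 basal sites and 26, 45 and 125 overexpression sites, and with only sites of the median width or wider 48 and 47, since these settings change how many sites enter. The CYP11A1 window held 1 overexpression-only site at 10 kb and 4 at 50 kb, with an SF-1 motif in 1 and 3, because the other sites lie further away. With the shorter motif, AAGGTCA or AAGGCCA, 26.9% of basal and 32.9% of overexpression sites matched. With the basal list shortened to the length of the overexpression list, 3 genes had a basal site at the start, since the sites of CYP17A1 and CYP21A2 are among the last in the list. Leaving out each gene in turn gave basal-only shares of 32.4 to 39.4%, overexpression-only shares of 33.8 to 38.7%, motif shares of 13.6 to 16.9% in the basal list and 9.84 to 19.7% in the other, and 0.462 to 1.30 overexpression-only per basal-only site near enzymes and 0.900 to 1.5 near partners. The lowest motif share on overexpression, 9.84%, and the lowest ratio near enzymes, 0.462, were those without CYP11A1. Under the other alternatives the ratio ranged from 0.714 (200 kb) to 2.0 (10 kb) near enzymes and from 0.625 (10 kb) to 1.33 (equal list length) near partners, so that both fell on either side of 1. The enzyme minus partner difference in overexpression-only share ranged from -30.6 to -18.8 points as genes were left out and from -27.9 (wider sites) to -14.6 (equal list length) otherwise, and its interval lay below 0 only without CYP11A1 (-30.6) and without CYB5A (-23.2, -43.2 to -1.0). The same difference in motif share of overexpression sites was 12.4 points (-5.79 to 27.4), ranged from -0.323 to 17.2 as genes were left out, turning to -0.323 (-17.2 to 16.2) without CYP11A1, and otherwise from 0.216 (200 kb) to 20.4 (50 kb), with 4.69 for the shorter motif. No paired analysis was possible because each condition had 1 library.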
